A study of Mus musculus with 32 samples.

Results

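The 68 genes described here were chosen by symbol as those of the factors that start and extend translation, their inhibitors and the enzymes that modify them. They are the protein-coding genes of the GENCODE M21 annotation whose symbols begin with Eif1 to Eif6, Eef1 or Eef2, and make up 68 of the 21938 protein-coding genes on chromosomes 1 to 19, X and Y. Their promoters were read in 16 ChIP-seq peak lists of MLL-AF9 leukemia in mouse bone marrow. H3K4me3, H3K9ac, H3K27ac and H3K4me1 were each profiled in 2 replicates of Kat2a WT and 2 of Kat2a KO, to ask where loss of the histone acetyltransferase Kat2a alters promoter acetylation. The donors of both genotypes carried Kat2a Flox/Flox and received pIpC. WT donors were Mx1-Cre -/-, so that the floxed allele was kept, and KO donors were Mx1-Cre+/-, with Cre under the interferon-inducible Mx1 promoter. Lineage-depleted marrow cells expressed MLL-AF9 from a retrovirus and were given to lethally irradiated mice, whose terminal marrow was pooled from 5 WT and 4 KO animals. Chromatin came from 5000000 cells per condition for H3K9ac and H3K4me3 and from 500000 for H3K27ac and H3K4me1, and no label names a step that separates leukemic cells from those of the recipient. Both replicates of a genotype share its pool, so p-values measure the spread between libraries, which may be technical. The donors were young adults, and the sex of the animals is not given in the sources used here.

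Translation begins when eIF2, bound to GTP and the initiator tRNA, joins the small ribosomal subunit with eIF1, eIF1A, eIF3 and eIF5, while eIF4E, eIF4G and the helicase eIF4A bring the capped mRNA. Phosphorylation of eIF2 by stress kinases and binding of eIF4E by the 4E-BP proteins slow this step, and eEF1A, eEF1B and eEF2 then drive elongation. Most of these genes are used by every dividing cell, and eIF4E is known for its role in leukemia cell growth. H3K4me3 and H3K9ac mark active promoters, H3K27ac active promoters and enhancers, and H3K4me1 mainly enhancers.

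A gene was given a mark in a library when a listed peak overlapped the stretch from 1 kb before to 500 bp after any of its annotated starts, here called its promoter. H3K4me3 peaks lay at the promoters of 63 and 61 of the 68 genes in WT replicates 1 and 2 and of 63 and 63 in KO, beside 55.6%, 48.7%, 51.8% and 53% of all genes in these libraries. H3K9ac peaks lay at 63 and 63 in WT and at 64 and 63 in KO, beside 54.4%, 52.7%, 51.5% and 52.2%. H3K27ac peaks lay at 19 and 62 in WT and at 0 and 63 in KO, beside 12.7%, 44.3%, 0.47% and 49.8%, and H3K4me1 peaks at 4 and 14 in WT and at 5 and 34 in KO, beside 1.85%, 18.4%, 3.29% and 37.2%. H3K4me3 and H3K9ac were thus listed at nearly the same number of these promoters in every library, whereas replicate 1 of H3K27ac and of H3K4me1 held few. Those replicates consist of short and weak peaks: of the 26791 peaks of WT H3K27ac replicate 1, with a median width of 48 bp, 13 had a q-value of at most 0.05, and of the 2725 of KO replicate 1 none had. H3K27ac and H3K4me1 were therefore read from replicate 2. These 2 lists also differ between genotypes, with 29757 H3K27ac peaks in WT and 46047 in KO and 45770 H3K4me1 peaks in WT and 78042 in KO. Of these H3K4me1 peaks, 34.3% in WT and 83.6% in KO had a q-value of at most 0.05, so the WT list holds mostly weak peaks. Read numbers are not part of these lists, and library depth is unknown. In pooled cells, fewer cells that carry a mark and less of the mark per cell cannot be told apart.

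**Figure D1:**
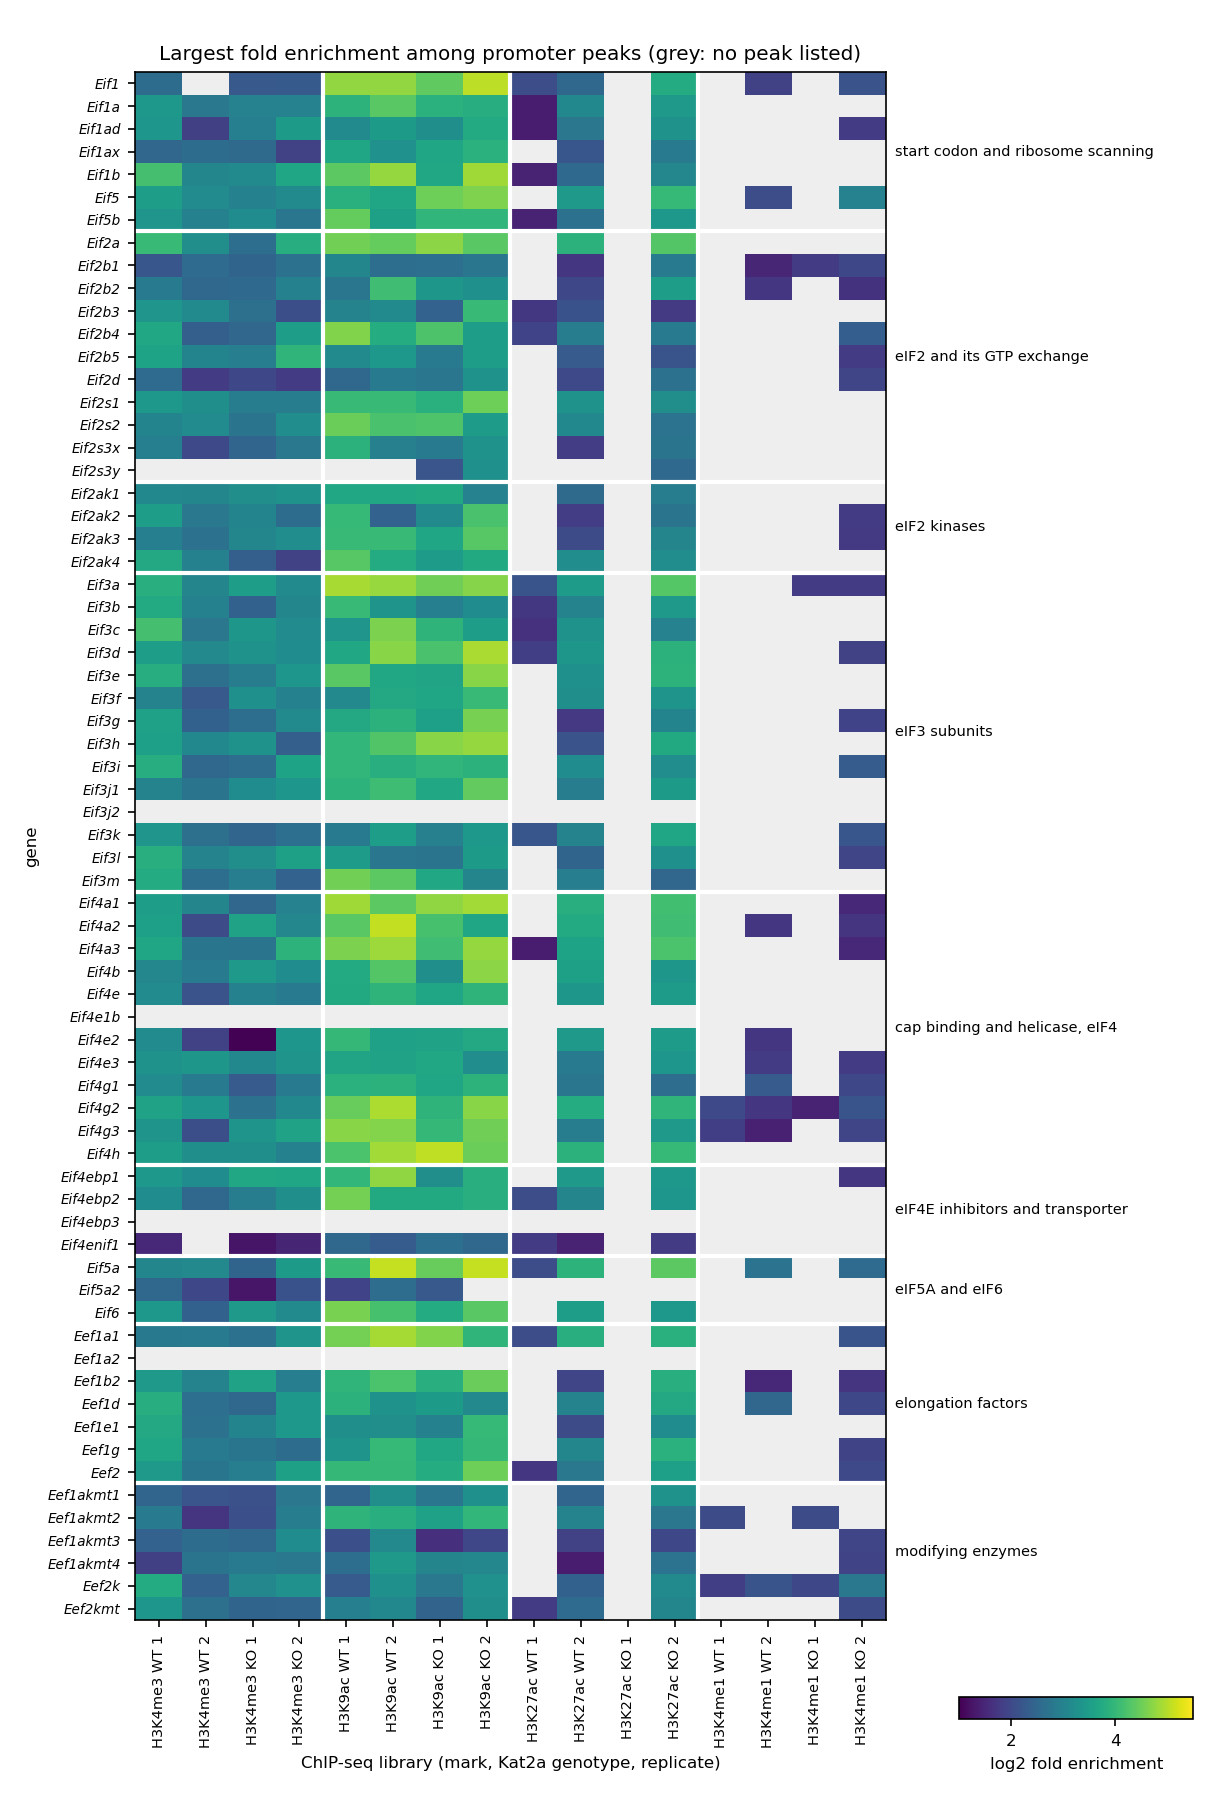
Largest fold enrichment (log2 scale, colour) among the promoter peaks of each of the 68 genes, in rows ordered by role, in each of the 16 libraries, in columns. Grey marks a promoter with no listed peak, as in all 16 columns for Eef1a2, Eif4e1b, Eif4ebp3 and Eif3j2, and in the column of KO H3K27ac replicate 1 for all 68 genes.

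The tissue label was set against marker genes, where a marker counted as detected with a region of H3K4me3 and a region of H3K9ac shared by both replicates, that is, the union of overlapping peaks of both. Of 9 markers of MLL-AF9 leukemia and myeloid progenitors, 6 were detected in WT and 8 in KO, and H3K9ac alone was shared by both replicates at 9 and 8. Hoxa9 had an H3K9ac fold enrichment of 14.4 and 17.8 in WT and of 13.1 and 25 in KO, and Mpo, a granule enzyme of myeloid cells, one of 3.72 and 2.92 in WT, no peak in KO replicate 1 and 4.59 in KO replicate 2. No marker was detected of 4 for erythroid cells or of 4 for stroma in either genotype, and H3K9ac alone was shared by both replicates at 1 and 1 of these in WT and at 0 and 1 in KO. The erythroid marker counted in WT was Klf1, where the shared region reached the promoter through the peak of replicate 1 alone. Of 3 T cell markers, 0 were detected in WT and 1 in KO, the kinase Lck, with an H3K9ac fold enrichment of 7.05 and 6.07 in WT and of 2.52 and 3.85 in KO. Of the erythroid markers, Gata1 and Hba-a1 had no promoter H3K9ac peak in any of the 4 H3K9ac libraries, Klf1 had one of 5.01 in WT replicate 1 and one of 2.73 in KO replicate 2, and Epor had 2.67 and 3.29 in KO, from peaks that formed no shared region, with shared H3K4me3. Of the stroma markers, Col1a1 had H3K9ac of 3.18 and 4.14 in WT and of 2.75 and 3.46 in KO, with both acetyl marks and no shared H3K4me3 in either genotype, Pdgfra had a peak of 3.84 in WT replicate 2 and shared H3K4me3 in WT alone, and Col1a2 and Cxcl12 had no H3K9ac peak, with shared H3K4me3 at Cxcl12 in both genotypes. Cd79a, Pax5, Cd3e and Cd3g had no promoter H3K9ac peak in any of the 4. Some markers of other cells thus had weak peaks, and their part in the values below was not tested.

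Among promoters with a peak, the median fold enrichment of members was above that of all genes in each of the 8 H3K9ac and H3K4me3 libraries. The median H3K9ac fold enrichment of members with a peak was 15 in WT replicate 1, 14.2 in WT replicate 2, 12.7 in KO replicate 1 and 15 in KO replicate 2, against 10.7, 11.1, 9.61 and 11.6 over all genes with a peak. Their median peak width was 1440, 1397, 1236.5 and 1239 bp, against 1296, 1332, 1103 and 1211 bp. For H3K4me3 the medians were 10.5, 6.72, 7.37 and 8.77 in fold enrichment against 8.54, 5.94, 6.11 and 7.42, and 1151, 853, 933 and 1069 bp in width against 1078, 709, 796 and 958 bp. Within each of these 8 libraries the median member lay between percentiles 65.3 and 71.1 of all genes with a peak by fold enrichment, and between percentiles 51.5 and 64.4 by width.

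Each promoter was then placed in an acetylation class by the H3K9ac regions shared by both replicates of a genotype and the H3K27ac peaks of replicate 2. In WT, 62 of the 68 members carried both marks, beside 43.8% of all genes. A further 1 carried H3K9ac only (7.78% of all genes), and 5 carried neither mark. In KO, 63 carried both (47.7% of all genes), 0 carried H3K9ac only (2.4%), and 5 carried neither. The class differed between genotypes at 2 members, Eif5a2 and Eif2s3y, and at 8.42% of all genes. The same 4 genes, Eef1a2, Eif4e1b, Eif4ebp3 and Eif3j2, had no peak of any mark in any of the 16 libraries. These counts rest on leaving out H3K27ac replicate 1. When both H3K27ac replicates had to share a region, 17 members in WT and 1 in KO carried both marks, beside 2317 and 47 of the 21938 genes, and the class differed at 18 members and 2966 genes. At single genes below, genotypes are said to overlap or not by the listed values, before the centring used in the tests, and counts over all members tested are given both ways.

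The genes for start codon recognition and ribosome scanning carried both acetyl marks at 7 of 7 promoters in each genotype. Eif1, which keeps the scanning ribosome from starting at wrong codons, had H3K9ac fold enrichment of 27.2 and 27.2 in WT and of 21.2 and 33.1 in KO. Its H3K4me3 fold enrichment was 6.02 in WT replicate 1, 4.76 in KO replicate 1 and 4.85 in KO replicate 2, and WT replicate 2 listed no H3K4me3 peak there. Eif1 was thus among the most H3K9ac-enriched members in all 4 libraries, with a percentile of at least 92.4, while its H3K4me3 was weak in 3 libraries and unlisted in 1. Eif5, the GTPase activator of eIF2, had an H3K9ac fold enrichment of 14.6 and 12.7 in WT and of 22.7 and 24.8 in KO. The KO libraries lay above both WT libraries, and after centring each library on its median the log2 difference of KO minus WT was 0.89 ± 0.37 (SE, limma adjusted p = 1.00). Eif5b, which joins the ribosomal subunits, had H3K9ac peaks of 3083 and 3169 bp in WT and of 2879 and 2783 bp in KO, both shorter than in WT before centring. Eif1ad, a relative of eIF1A, had H3K4me3 peaks of 2153 and 1390 bp in WT and of 1340 and 1762 bp in KO, where the genotypes overlap before centring and KO lies below WT after it.

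The genes for eIF2 and its exchange factor eIF2B were grouped with Eif2a and Eif2d by symbol. Of this group, 10 of 11 carried both acetyl marks in WT and 11 of 11 in KO. The gene that differed was Eif2s3y, the Y-linked copy of the gamma subunit of eIF2 at chrY:1010543-1028847. Both KO libraries listed an H3K9ac peak at its promoter, with a fold enrichment of 4.54 over 895 bp in replicate 1 and of 9.62 over 739 bp in replicate 2, and no WT library did. H3K27ac was listed in KO replicate 2, at 5.80, and not in WT replicate 2, and no library listed H3K4me3. Eif2s3y was the 1 member with H3K9ac in both KO libraries and in no WT library, a pattern of 38 genes or 0.173% of all genes. The reverse, H3K9ac in both WT libraries and no KO library, held for 0 members and for 0.647% of all genes. Its X-linked counterpart Eif2s3x had H3K9ac in all 4 libraries, with a fold enrichment of 14.9 and 7.79 in WT and of 7.25 and 9.87 in KO, and those of the genotypes overlap. The promoters of this pair are shown to set the copy with a one-genotype peak beside the copy without. Eif2s3y lies on the plus strand at chrY:1010345-1010624 and Eif2s3x on the minus strand at chrX:94212622-94212901, both from RefSeq GRCm38.p6, the assembly of mm10. Each runs 5' to 3' from 250 bases before to 30 bases after the RefSeq start, and capitals mark matches to the searched motifs on either strand: CACGTG, the E-box core bound by Myc, then CCGGAAG, the ETS core, then TATAAA, then CCAAT and last GGGCGG.

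Eif2s3y: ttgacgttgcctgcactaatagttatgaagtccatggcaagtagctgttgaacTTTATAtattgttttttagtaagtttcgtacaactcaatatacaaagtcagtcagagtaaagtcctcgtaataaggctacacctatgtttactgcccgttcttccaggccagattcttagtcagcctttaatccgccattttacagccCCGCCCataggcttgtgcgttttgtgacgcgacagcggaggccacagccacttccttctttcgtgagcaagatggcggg
Eif2s3x: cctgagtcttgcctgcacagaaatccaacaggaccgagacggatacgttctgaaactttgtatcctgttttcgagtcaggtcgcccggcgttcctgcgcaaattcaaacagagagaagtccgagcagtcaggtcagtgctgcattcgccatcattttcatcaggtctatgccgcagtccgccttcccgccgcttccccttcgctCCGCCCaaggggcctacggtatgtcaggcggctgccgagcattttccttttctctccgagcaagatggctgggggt

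The Eif2s3y window holds TATAAA on the opposite strand with its first base at -197, and GGGCGG on the opposite strand at -49, where -1 is the base before the start. Eif2s3x holds GGGCGG at -46, also on the opposite strand. Among the 16522 protein-coding genes in the RefSeq promoter table, searched to 50 bases after the start, 9.18% hold CACGTG, 13.4% CCGGAAG, 14.3% TATAAA, 42.1% CCAAT and 51% GGGCGG. A match describes letters in a window and not a bound site.

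Other Y-linked genes had a like pattern. Of 183 Y-linked protein-coding genes, 4 had a promoter H3K9ac peak in each KO library, against 1 and 0 in the WT libraries. Besides Eif2s3y these were Ddx3y, Uty and Kdm5d, named after their values were seen. Ddx3y had an H3K9ac fold enrichment of 5.07 and 3.71 in KO, Kdm5d 6.14 and 6.66 and Uty 7.75 and 9.62, and of these Uty alone had a WT peak, of 3.62 in replicate 1. Xist, the RNA that silences an X chromosome, was also chosen after its values were seen and was read from 1 kb before to 2 kb after its start. Its H3K9ac fold enrichment was 8.60 and 14.3 in WT and 4.01 and 3.71 in KO, and its H3K4me3 was 9.02 and 3.79 in WT with no peak in KO. Y-linked promoters were thus listed mainly in KO and Xist more strongly in WT. The part of the animals' sex in the Eif2s3y values was not tested, and in these pools it cannot be told apart from genotype. On chromosomes 1 to 19 alone, which hold 65 of the members, the class differed at 1 gene and no member had H3K9ac in a single genotype, a count chosen after the data were seen.

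**Figure D2:**
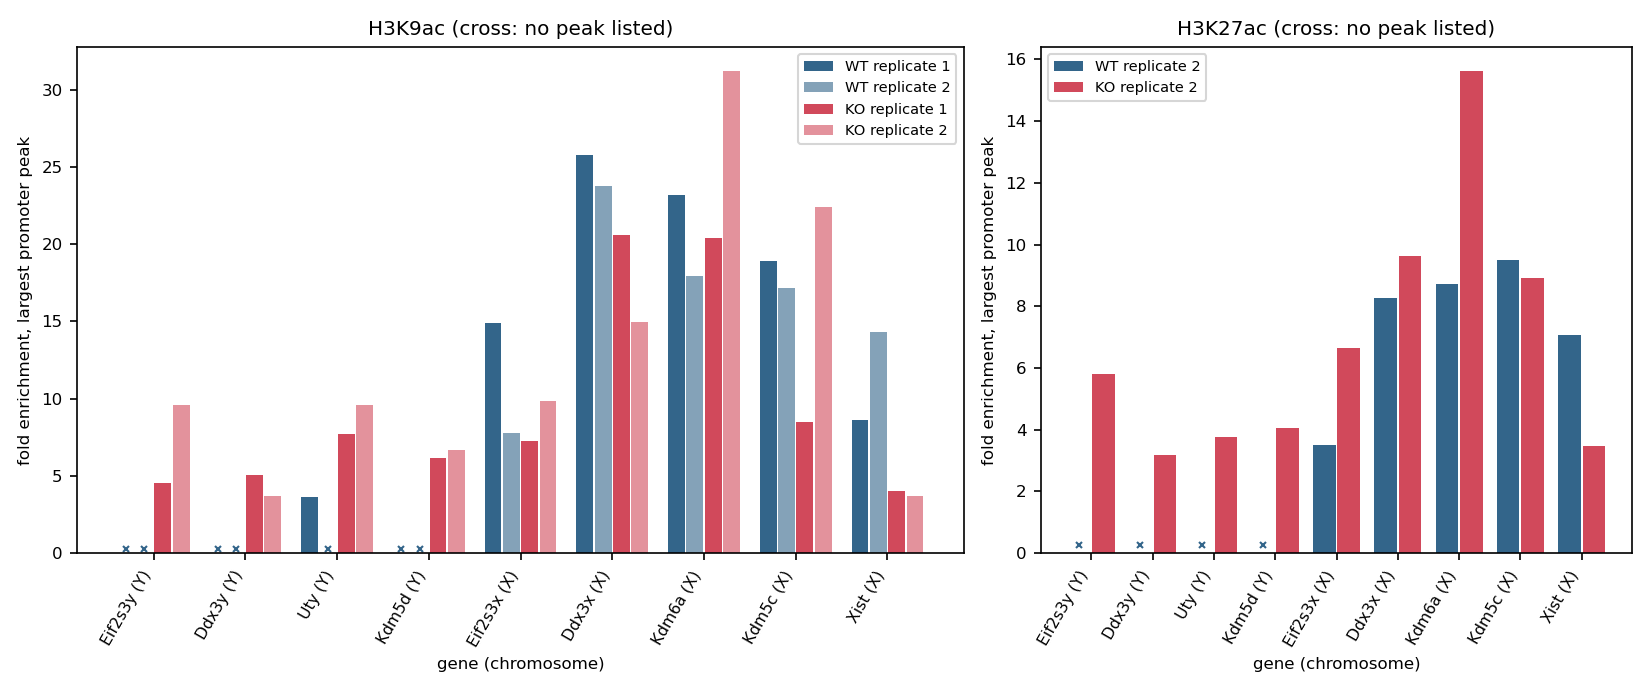
Fold enrichment of the largest promoter peak of H3K9ac (left, both replicates) and of H3K27ac (right, replicate 2) at 4 Y-linked genes, their X-linked partners and Xist, with WT in blue and KO in red. Crosses mark libraries with no listed peak. The Y-linked genes have bars in every KO library drawn, Uty has the one WT bar among them, at 3.62, and Xist is taller in WT.

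Eif2s1, the alpha subunit of eIF2 that the stress kinases phosphorylate, had H3K9ac fold enrichment of 16.5 and 16.3 in WT and of 14.5 and 22.8 in KO. Eif2a, an initiator tRNA carrier that works apart from eIF2, had H3K9ac peaks of 2889 and 3140 bp in WT and of 1457 and 1956 bp in KO. In the eIF2B exchange factor, Eif2b5 had H3K9ac peaks of 782 and 775 bp in WT and of 1173 and 1216 bp in KO. The genotypes did not overlap at Eif2a, wider in WT, or at Eif2b5, wider in KO. The log2 difference at Eif2a was -0.62 ± 0.18 (SE, limma adjusted p = 0.729) and missed the threshold. For Eif2b5 the log2 difference of 0.83 ± 0.16 (SE) had the smallest p of all members by H3K9ac width (limma adjusted p = 0.480) and missed the threshold. WT replicate 2 listed 2 H3K9ac peaks at Eif2b5, and the summed widths, 782 and 1174 bp in WT and 1173 and 1216 bp in KO, overlap. Eif2b4 had H3K4me3 peaks of 936 and 798 bp in WT and of 1628 and 1919 bp in KO, a log2 difference of 1.03 ± 0.36 (SE, limma adjusted p = 0.577). Its promoter lists 2 H3K4me3 peaks in each WT library and 1 in each KO library, and the summed widths, 1707 and 1068 bp in WT and 1628 and 1919 bp in KO, overlap. The start of Eif2b4 lies 88 bp from that of Snx17 on the other strand. Eif2b3 had H3K4me3 fold enrichment of 10.1 and 8.88 in WT and of 6.31 and 4.24 in KO (log2 difference -0.82 ± 0.38, SE, limma adjusted p = 0.886).

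The 4 eIF2 kinase genes, which slow initiation under heme loss, viral RNA, unfolded protein and amino acid shortage, carried both acetyl marks in both genotypes. Eif2ak4, the sensor of amino acid shortage, had H3K4me3 fold enrichment of 13.1 and 7.90 in WT and of 5.13 and 3.67 in KO. The WT libraries lay above both KO libraries, with a log2 difference of -1.17 ± 0.37 (SE, limma adjusted p = 0.875). H3K9ac there was 20.1 and 13.7 in WT and 11.3 and 13.4 in KO. WT lay above KO in this mark too, with a log2 difference of -0.34 ± 0.37 (SE) that missed the threshold. Eif2ak2, the kinase activated by viral RNA and named after its values were seen, had H3K9ac peaks of 796 and 840 bp in WT and of 1124 and 1109 bp in KO (log2 difference 0.66 ± 0.16, SE, limma adjusted p = 0.622). Summed over its peaks the widths were 796 and 1128 bp in WT and 1124 and 1109 bp in KO, and these overlap.

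Of the 14 genes for eIF3, the scaffold that holds the initiation factors on the small subunit, 13 carried both acetyl marks in each genotype, and Eif3j2 had no peak. Eif3a, the largest subunit, had H3K9ac fold enrichment of 30.1 and 28.0 in WT and of 22.9 and 25.6 in KO, and its H3K4me3 peaks measured 2577 and 1343 bp in WT and 1059 and 1907 bp in KO. Eif3m had H3K9ac fold enrichment of 23.3 and 20.5 in WT and of 12.8 and 8.29 in KO. At both genes the WT values of H3K9ac lay above the KO values, and for Eif3m the log2 difference of -1.0 ± 0.38 (SE) had the smallest p of all members by H3K9ac fold enrichment (limma adjusted p = 1.00). The start of Eif3m lies 41 bp from that of Ccdc73 on the other strand, so a peak there may belong to either gene.

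Of the 12 genes of the eIF4 cap-binding complex and helicase, 11 carried both acetyl marks in each genotype and Eif4e1b had no peak. Several held more than 1 H3K4me3 region, and the regions were also classed by themselves. An H3K4me3 region with H3K9ac and without H3K27ac in WT, and with no such region over it in KO, lay at 4 members, beside 5.86% of all genes, and 3 of them were in this group: Eif4e, Eif4g1 and Eif4a1. The reverse, exclusive to KO, lay at 0 members, beside 1.19% of all genes. The 4 members were the same when both H3K27ac lists were held to equal length, a setting with 1 KO-exclusive member, Eif2b3. With the outermost start of each gene alone, Eif5a2 was left, and Eif4e, Eif4g1 and Eif4a1 had no such region. With both H3K27ac replicates required, 17 members held a KO-exclusive region, beside 2976 of all genes.

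Eif4e, which binds the mRNA cap, held 2 such regions. RefSeq lists a start of Eif4e at position 138526191 of chromosome 3, whose window holds none of the searched motifs, and another at 138527268, used here. Around the start at 138527268, the H3K4me3 lists held 3 separate peaks in both WT libraries and in KO replicate 1 and 2 in KO replicate 2. The WT-exclusive regions were chr3:138527175-138527480, over the start, and chr3:138527744-138528464, downstream of it. At the start itself the H3K4me3 fold enrichment was 3.83 and 4.43 in WT and 3.56 in KO replicate 1, and KO replicate 2 listed none. H3K9ac covered the start in all 4 libraries, with 10.5 and 15.1 for WT and with 12.7 and 10.7 for KO, and the peaks of 15.1 and 12.7 also span the stretch upstream, so these 4 values do not compare the start alone. The H3K27ac lists of replicate 2 differed there: WT listed no peak over either region and KO listed a peak of 249 bp at 3.95 over the start and one of 719 bp at 8.69 downstream. Upstream of the start both genotypes listed H3K27ac, at 10.4 over 610 bp in WT and at 11.1 over 1045 bp in KO. H3K9ac was thus listed over the start in every library. The downstream region differed by H3K27ac, listed in the KO library of 46047 peaks and not in the WT library of 29757, and the region over the start also by H3K4me3, which both KO libraries did not share.

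Eif4g1, the scaffold that links eIF4E to eIF4A and eIF3, held 1 region, over its start. The WT-exclusive region of Eif4g1 was chr16:20672368-20672887, where the H3K4me3 fold enrichment was 4.99 and 2.15 in WT, unlisted in KO replicate 1 and 3.43 in KO replicate 2. H3K9ac there was 14.7 and 6.51 in WT and 4.85 and 6.63 in KO, the first of these from a WT peak of 2264 bp that also spans the downstream region. H3K27ac was unlisted over the region in WT replicate 2 and stood at 4.94 in KO replicate 2. As at the start of Eif4e, both H3K4me3 and H3K27ac therefore differed between the lists. With peaks held to a q-value of at most 0.05 Eif4g1 no longer had such a region, Eif4e, Eif4a1 and Eif5a2 did, and Eef2k, Eif4a3 and Eef1akmt4 were added, which makes 6 members. The windows of Eif4e and Eif4g1 are shown because the regions over their starts overlap them; the downstream region of Eif4e lies outside. Eif4e is on the plus strand at chr3:138527018-138527297 and Eif4g1 on the plus strand at chr16:20672477-20672756, from the same RefSeq table, with capitals for the same motifs.

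Eif4e: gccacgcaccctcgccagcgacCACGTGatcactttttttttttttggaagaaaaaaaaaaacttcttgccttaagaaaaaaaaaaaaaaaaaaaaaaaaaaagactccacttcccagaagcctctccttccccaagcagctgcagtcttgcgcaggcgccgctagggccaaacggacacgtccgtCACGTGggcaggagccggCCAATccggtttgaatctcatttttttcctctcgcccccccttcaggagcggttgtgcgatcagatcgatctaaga
Eif4g1: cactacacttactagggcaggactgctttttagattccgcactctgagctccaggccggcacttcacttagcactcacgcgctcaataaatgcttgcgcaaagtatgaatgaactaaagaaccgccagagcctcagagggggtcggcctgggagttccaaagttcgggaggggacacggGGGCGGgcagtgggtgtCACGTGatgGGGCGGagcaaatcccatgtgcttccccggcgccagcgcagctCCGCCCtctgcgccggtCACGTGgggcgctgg

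Both windows hold the E-box core CACGTG more than once, in Eif4e with its first base at -228 and at -64 and in Eif4g1 at -54 and at 16. Eif4e also holds CCAAT at -46, and Eif4g1 holds GGGCGG at -71, at -45 and, on the opposite strand, at -2. Peaks over the printed window were listed in 8 of the 16 libraries for each gene.

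**Figure D3:**
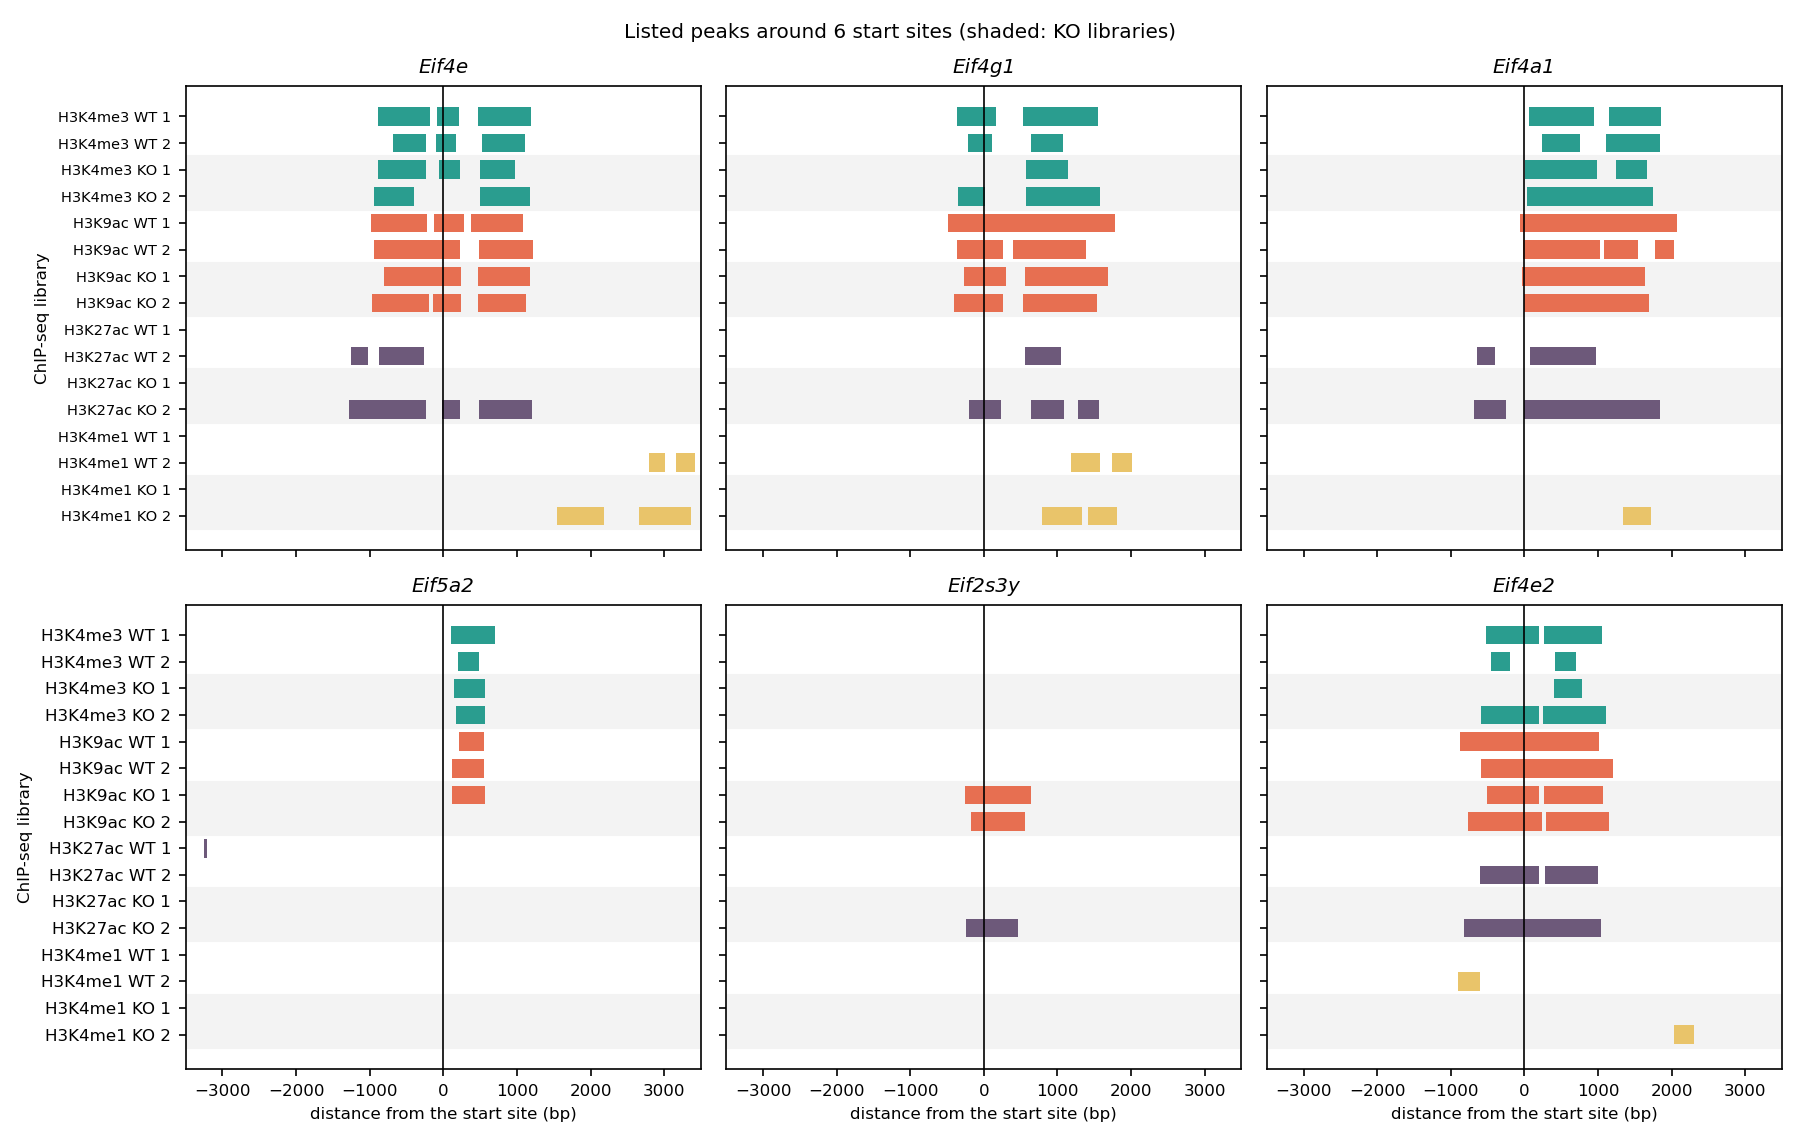
Listed peaks (bars) in the 16 libraries around a start site of 6 genes, by distance from the start in bp, with KO libraries shaded. The start is that of RefSeq for Eif4e (the one at 138527268), Eif4g1, Eif5a2 and Eif2s3y and the outermost in GENCODE for Eif4a1 and Eif4e2. At Eif4e and Eif4g1, KO H3K27ac replicate 2 has a bar over the start where WT replicate 2 has none, and at Eif4e2 the H3K9ac bar is whole in WT and split in KO.

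Eif4a1, the main helicase, had its WT-exclusive region at chr11:69670565-69671311, downstream of its outermost start. KO had shared H3K4me3 and shared H3K9ac over this region too. It differed by H3K27ac, listed over it in KO replicate 2 and not in WT replicate 2. Its H3K9ac fold enrichment was 29.2 and 20.5 in WT and 26.8 and 29.3 in KO, and its H3K27ac peaks of replicate 2 measured 900 bp in WT and 1847 bp in KO. Its H3K4me3 peaks measured 880 and 729 bp in WT and 980 and 1719 bp in KO, which lay above WT (log2 difference 0.70 ± 0.37, SE, limma adjusted p = 0.921). The summed widths, 1595 and 1254 bp in WT and 1402 and 1719 bp in KO, overlap, and their log2 difference was 0.11. Its close relative Eif4a2 had the widest H3K4me3 by the WT mean of all members, with 3065 and 1414 bp in WT and 1594 and 2016 bp in KO.

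Eif4g3, a relative of Eif4g1, and Eif4g2, which supports cap-independent initiation, had among the widest H3K9ac peaks of the members. Eif4g2 measured 2057 and 3980 bp in WT and 1915 and 3137 bp in KO, and its H3K4me3 peaks 2811 and 1317 bp in WT and 1389 and 2000 bp in KO. Eif4g3 measured 3481 and 3612 bp in WT and 1896 and 2093 bp in KO, and Eif4e2, a cap-binding relative of eIF4E linked to repression, 1886 and 1795 bp in WT and 805 and 1002 bp in KO. The genotypes overlap at Eif4g2 and not at Eif4g3 or Eif4e2, where the log2 differences were -0.62 ± 0.15 (SE, limma adjusted p = 0.622) and -0.82 ± 0.16 (SE, limma adjusted p = 0.546). At Eif4g3, Eif4e2 and Eif2a each WT library listed 1 H3K9ac peak and each KO library 2. Summed over the peaks, the H3K9ac width of Eif4e2 was 1886 and 1795 bp in WT and 1512 and 1856 bp in KO, and its log2 difference turned to 0.04. That of Eif4g3 was 3481 and 3612 bp in WT and 3085 and 3090 bp in KO, and that of Eif2a 2889 and 3140 bp in WT and 1797 and 2512 bp in KO. The centred log2 difference of summed width was -0.03 at Eif4g3, so at both Eif4e2 and Eif4g3 the difference in the widest peak was near 0 in the sum after centring. By the listed values the summed widths overlap at Eif4e2, while those of KO lie below those of WT at Eif4g3 and Eif2a. With summed widths 1 of the 62 members tested had an unadjusted p under 0.05 in limma, beside 5.29% of all genes. The H3K4me3 fold enrichment of Eif4g3 was 10 and 4.21 in WT and 10.1 and 12 in KO (log2 difference 0.82 ± 0.37, SE, limma adjusted p = 0.886), and with the outermost start alone this difference was 0.02.

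**Figure D4:**
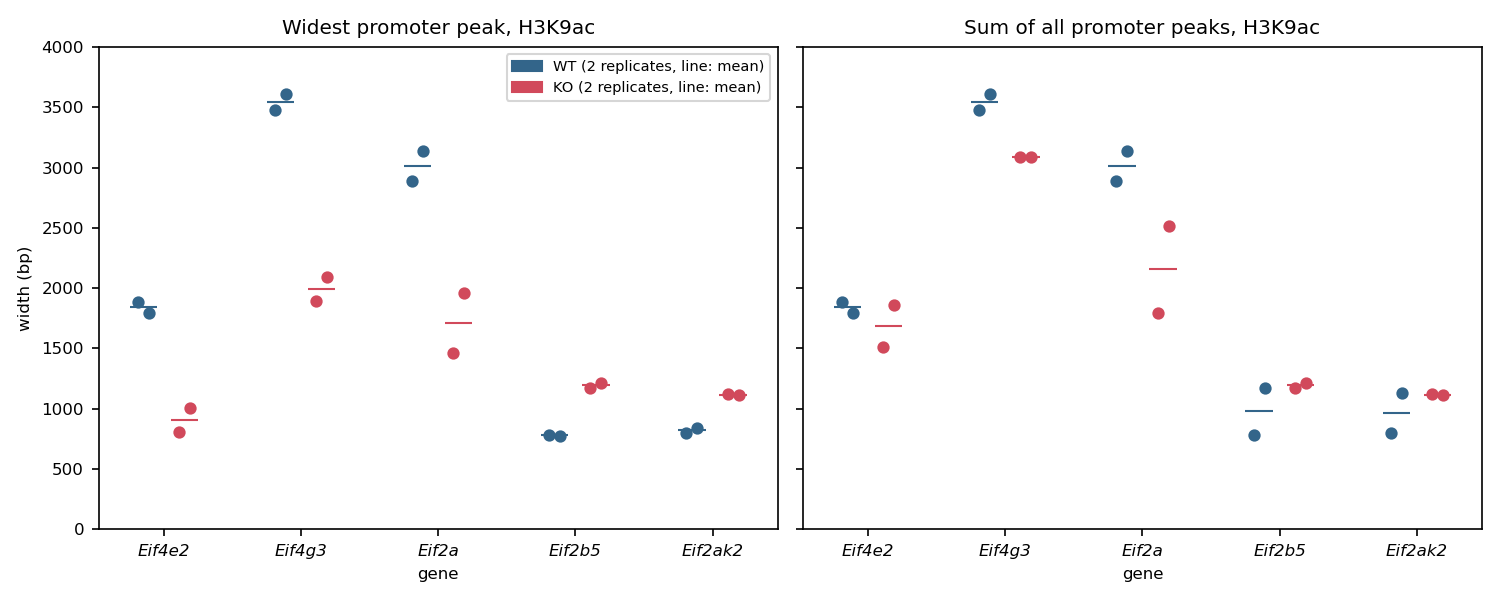
H3K9ac width in bp at the 5 members with an unadjusted limma p under 0.05 for the widest promoter peak (left) and for the sum of all promoter peaks of the same genes (right). The genes were picked by this p, and all miss the threshold after adjustment (smallest limma adjusted p = 0.480). Points are replicates, 2 per genotype, with WT in blue and KO in red, and lines are means. Eif4e2 has separate groups on the left and overlapping groups on the right.

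Of the 4 genes for eIF4E inhibitors and the eIF4E transporter, 3 carried both acetyl marks in each genotype and Eif4ebp3 had no peak. Eif4ebp1, which holds eIF4E back until mTOR phosphorylates it, had H3K9ac fold enrichment of 15.8 and 26.9 in WT and of 9.38 and 14.1 in KO. The WT values lay above the KO values, and the log2 difference of -0.76 ± 0.38 (SE) missed the threshold (limma adjusted p = 1.00). Eif4enif1, which carries eIF4E into the nucleus, had weak marks throughout. Its H3K4me3 fold enrichment was 2.88 in WT replicate 1, 2.40 in KO replicate 1 and 2.77 in KO replicate 2, with no peak in WT replicate 2, and its H3K9ac was 5.66 and 4.96 in WT and 6.26 and 5.70 in KO.

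Among the eIF5A and eIF6 genes, Eif5a and Eif6 carried both acetyl marks in both genotypes. Eif5a, the factor that carries the amino acid hypusine and helps the ribosome through stalling sequences, had H3K9ac fold enrichment of 16.5 and 34.4 in WT and of 21.8 and 34.4 in KO. Eif6, which keeps the ribosomal subunits apart, had 24.3 and 18.2 in WT and 13.6 and 20.4 in KO. In both genes the genotypes overlap. Eif5a2, the second eIF5A gene with narrow use in normal tissue, was the 1 member classed as H3K9ac only in WT, and its region at chr3:28781380-28781977 made it the fourth member with a WT-exclusive one. Its H3K9ac fold enrichment was 3.72 and 6.07 in WT and 4.81 in KO replicate 1, and KO replicate 2 listed no peak. Its H3K4me3 was 5.68 and 3.92 in WT and 2.42 and 4.38 in KO, and no H3K27ac peak was listed at its promoter in any of the 4 H3K27ac libraries. The change of class at Eif5a2 thus came from the peak missing in 1 KO library. Its window, on the plus strand at chr3:28781027-28781306 in the same RefSeq table, is shown because its peaks lie entirely after the start.

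Eif5a2: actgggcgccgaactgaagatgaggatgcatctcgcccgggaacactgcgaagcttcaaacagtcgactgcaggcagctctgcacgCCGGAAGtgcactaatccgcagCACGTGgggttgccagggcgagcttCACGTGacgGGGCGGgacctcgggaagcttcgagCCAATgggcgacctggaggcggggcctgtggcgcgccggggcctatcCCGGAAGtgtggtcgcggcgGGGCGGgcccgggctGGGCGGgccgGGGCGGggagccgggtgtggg

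It is the richest of the printed windows in capitals, with 9 matches. CACGTG begins at -142 and at -117, CCGGAAG at -164 and at -36, CCAAT at -83 and GGGCGG at -108, at -16, at -1 and at 10. No library lists a peak over the window, and the earliest base of a promoter peak lies 103 bp after the start.

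Of the 7 genes grouped by symbol as elongation factors, Eef1e1 among them, 6 carried both acetyl marks in each genotype. Eef1a1, which brings aminoacyl-tRNA to the ribosome in most cells, had H3K9ac fold enrichment of 23.7 and 29.8 in WT and of 25.2 and 15.4 in KO. Eef2, which moves the ribosome along the mRNA, had 15.9 and 15.9 in WT and 13.7 and 22.7 in KO. The genotypes overlap at both genes before centring, and after it KO lies above WT at Eef2. Eef1a2, the copy that replaces Eef1a1 in muscle and nerve cells, had no peak of any mark in any library. The promoters of these copies are shown as a marked and an unmarked member of a pair: Eef1a1 on the minus strand at chr9:78481695-78481974 and Eef1a2 on the minus strand at chr2:181156986-181157265, in the same RefSeq table and with the same use of capitals.

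Eef1a1: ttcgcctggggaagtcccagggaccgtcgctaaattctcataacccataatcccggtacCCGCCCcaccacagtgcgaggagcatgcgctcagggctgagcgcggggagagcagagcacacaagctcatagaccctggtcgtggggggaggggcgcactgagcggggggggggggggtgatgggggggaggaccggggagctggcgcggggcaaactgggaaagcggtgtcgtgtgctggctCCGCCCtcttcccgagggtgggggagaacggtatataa
Eef1a2: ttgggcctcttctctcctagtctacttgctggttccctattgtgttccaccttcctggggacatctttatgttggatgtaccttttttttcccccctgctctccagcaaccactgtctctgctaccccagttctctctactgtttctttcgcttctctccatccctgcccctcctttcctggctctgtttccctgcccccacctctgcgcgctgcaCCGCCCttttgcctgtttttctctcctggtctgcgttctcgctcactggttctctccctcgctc

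The Eef1a1 window has a GC content of 66.4% and a ratio of observed to expected CpG of 0.686, and the Eef1a2 window 54.6% and 0.409. Eef1a1 holds GGGCGG on the opposite strand at -191 and at -8, and Eef1a2 holds it there at -34. Peaks over the printed window were listed in 11 of the 16 libraries for Eef1a1 and in 0 for Eef1a2. Eef1d, a subunit of the exchange factor eEF1B, had H3K4me3 peaks of 1225 and 720 bp in WT and of 360 and 741 bp in KO. These overlap before centring, and the centred log2 difference was -0.86 ± 0.37 (SE, limma adjusted p = 0.723).

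The 6 genes for enzymes that modify the elongation factors carried both acetyl marks in both genotypes. Eef2k, the kinase that stops eEF2, had broad H3K9ac of low fold enrichment. Its H3K9ac peaks measured 2153 and 1976 bp in WT and 1300 and 2308 bp in KO, with a fold enrichment of 4.91 and 9.61 in WT and of 7.00 and 9.73 in KO. By fold enrichment its H3K9ac lay between percentiles 16.6 and 41.2 of genes with a peak and its H3K4me3 between 39.6 and 92.4.

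Across the list, limma called 0 members at an adjusted p under 0.05 in each of 4 tests of KO against WT. For H3K9ac width, 0 of 10837 genes were called (0%), and 5 of the 62 members tested had an unadjusted p under 0.05, beside 5.58% of all genes. After centring, both KO libraries lay above both WT libraries at 16 of the 62 (23.2% of all genes) and below at 7 (13.1%), and by the listed values above at 6 (4.21%) and below at 20 (36.4%). The log2 difference was positive at 37 members and negative at 25 after centring, and positive at 13 and negative at 49 without it. Its median was 0.05 over members and 0.05 over all genes, and without centring -0.16 and -0.17, so the direction depends on the centring. For H3K9ac fold enrichment, 0 genes were called (0%) and 2 of 62 members had p under 0.05 (3.63% of all genes), with 8 members above (16.6%) and 7 below (14.6%) after centring and 3 above (10.4%) and 9 below (19.2%) by the listed values. The median log2 difference was 0.04 over members and 0.01 over all genes, and -0.05 and -0.08 without centring, so this sign too depends on the centring. Without WT replicate 1, limma called 2 genes, of which 0 were members.

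For H3K4me3 width, 0 of 61 members were called by limma, beside 2 of 10247 genes or 0.0195%. These were Pde3b, wider in KO, and Myo7a, wider in WT, both named after their values were seen. Of the 61 members 2 had an unadjusted p under 0.05 (5.74% of all genes), 9 lay above in KO (15.4%) and 7 below (15%) after centring, and 7 above (7.7%) and 4 below (9.97%) by the listed values. The median log2 difference was 0.03 over members and -0.0018 over all genes. Over members it was -0.03 with summed width and -0.05 without WT replicate 1, so its sign depends on the processing. Over all genes the count moved to 42 without WT replicate 1, to 5 without WT replicate 2 and to 1 without KO replicate 1, and members called were 0 in each. For H3K4me3 fold enrichment limma called 0 genes (0%), and 3 of 61 members had p under 0.05 (5.49% of all genes). After centring 9 members lay above (17.1%) and 11 below (17.6%), and by the listed values 7 above (8.92%) and 10 below (14%). The median log2 difference was -0.04 over members and 0.0026 over all genes, and -0.096 and -0.055 without centring. Over members it was 0.07 without KO replicate 1, so its sign depends on that library. The median absolute difference between the replicates of a genotype, on the log2 scale over members, was 0.19 in WT and 0.17 in KO for H3K9ac width and 0.42 and 0.30 for H3K4me3 width.

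**Figure D5:**
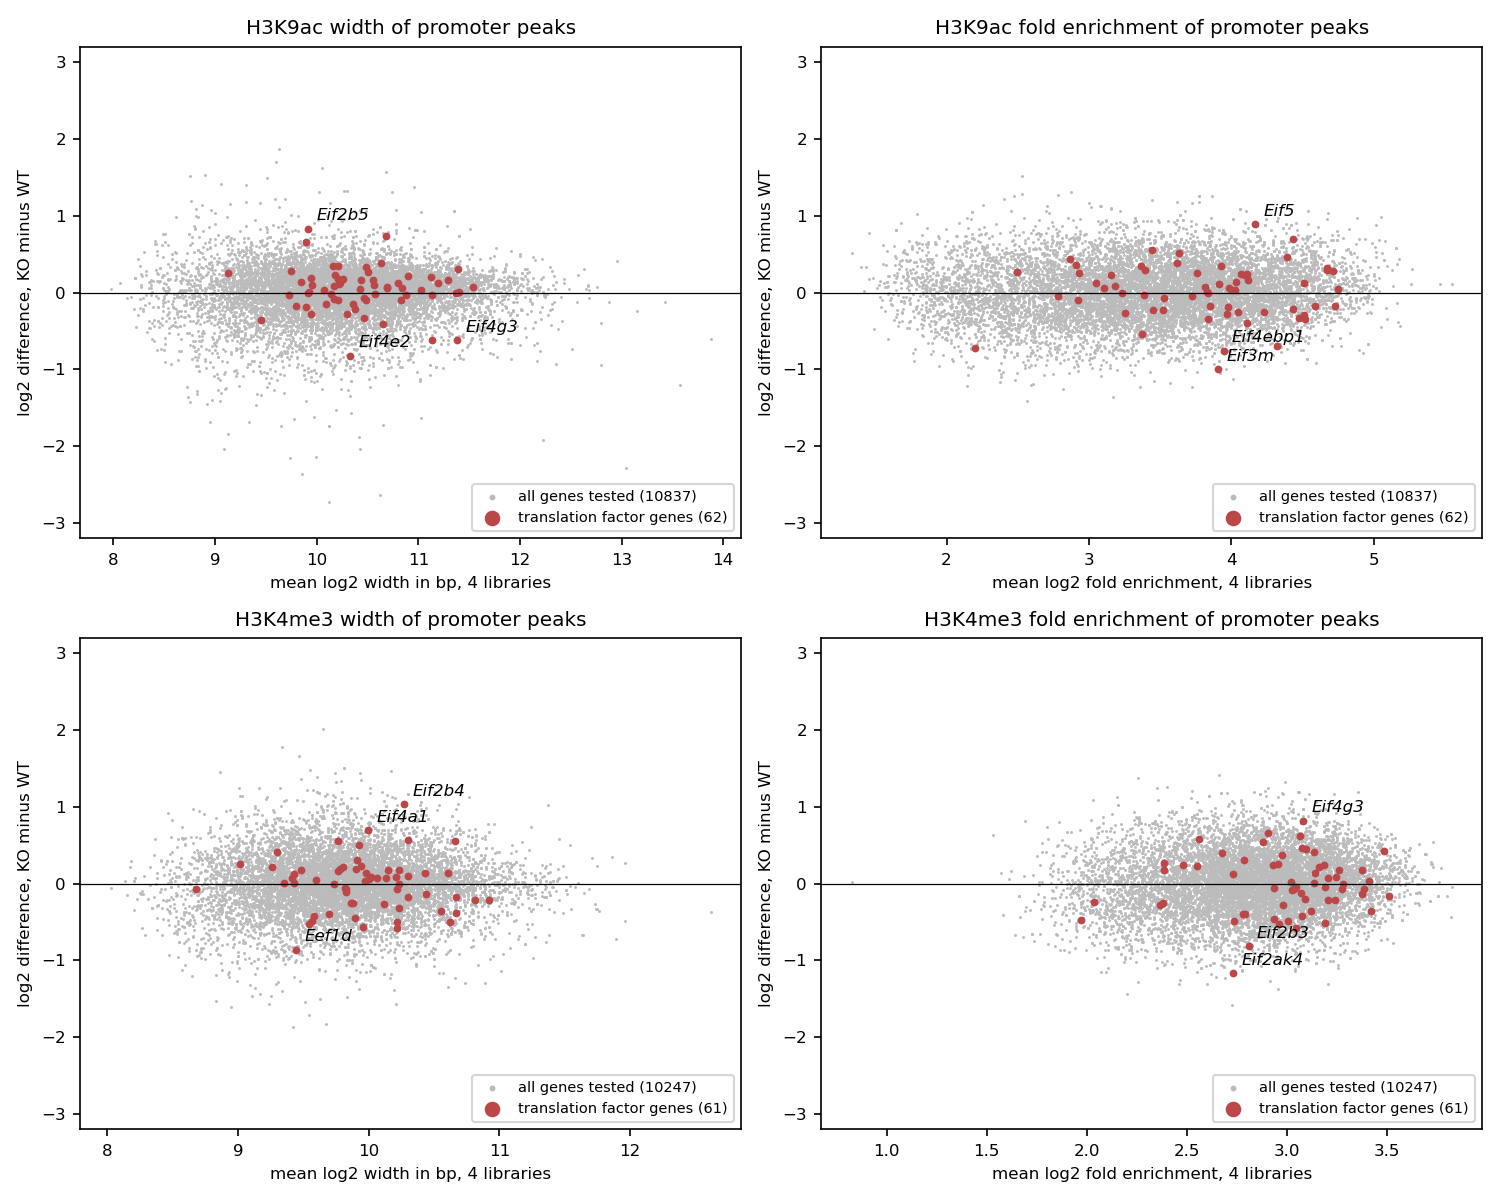
Centred log2 difference of KO minus WT against the mean over 4 libraries, for the width (left) and the fold enrichment (right) of promoter peaks of H3K9ac (top) and H3K4me3 (bottom). Grey points are all genes tested and red points the 62 or 61 members tested, with the 3 members of smallest p named in each panel. The red points lie within the spread of the grey ones.

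In replicate 2, H3K27ac peaks were wider in KO than in WT at 58 of the 62 members with a peak in both, or 93.5%, and at 89.5% of all 9634 such genes. The median log2 ratio of KO over WT width was 0.55 for members and 0.56 for all. H3K4me1 was wider in KO replicate 2 at 12 of 13 members and at 94.9% of all genes, and its promoter peaks were listed at 14 members in WT and 34 in KO, against 18.4% and 37.2% of all genes. The wider peaks in the KO libraries of both marks were therefore shared by promoters in general. With 1 library per genotype these differences were not tested, and the H3K4me1 counts and widths set a list with 34.3% of peaks at a q-value of at most 0.05 against one with 83.6%.

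A start of another protein-coding gene lay on the other strand within 1 kb, facing away, at 14 of 68 members or 20.6%, beside 11% of all genes and 20.8% of the 10302 genes with H3K4me3 and H3K9ac in WT, so the members' share was close to that of marked genes. The partners include Ndufs1, 3 bp from Eef1b2, Gtf2h3, 9 bp from Eif2b1, and Tmem234, 20 bp from Eif3i, and a peak at such a promoter cannot be assigned to either gene. Of the 68 members, 52 (76.5%) matched the RefSeq promoter table by symbol, under the 80% needed, so a comparison of base content or motifs over the list is void. Those without an entry were Eif3i, Eif2b3, Eif4ebp1, Eef1g, Eif4e1b, Eif4g2, Eif3j2, Eef1akmt1, Eif3h, Eif1a, Eef1akmt3, Eif6, Eif4e3, Eif3e, Eif4ebp3 and Eef1d.

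A list of 40 other translation genes gave similar counts. It covers initiation helpers, termination, poly(A) binding, hypusine and diphthamide synthesis, mTOR signalling, the stress response and mitochondrial factors. Both acetyl marks lay at 36 of 40 promoters in WT and 38 of 40 in KO, beside 43.8% and 47.7% of all genes. H3K9ac only lay at 2 and 0, beside 7.78% and 2.4%. The 2 were Pabpc4, a poly(A) binding protein, with H3K9ac fold enrichment of 4.23 and 4.29 in WT and 3.21 and 4.64 in KO, and Dph2, a diphthamide enzyme, with 3.2 and 6.3 in WT and 3.11 and 3.36 in KO. Both had an H3K27ac peak in KO replicate 2 and none in WT replicate 2, and neither had a peak missing in an H3K9ac library. Dph2 and Paip2 held a WT-exclusive H3K9ac-only region and 0 of the 40 a KO-exclusive one, beside 5.86% and 1.19% of all genes. Limma called 0 of them in each of the 4 tests. For H3K9ac width and fold enrichment, 1 of 38 and 2 of 38 had an unadjusted p under 0.05, beside 5.58% and 3.63% of all genes. For H3K4me3 these were 3 of 36 and 2 of 36, beside 5.74% and 5.49%. The smallest p was that of Rps6kb2, a kinase of the mTOR pathway, with a log2 difference in H3K4me3 width of -1.22 ± 0.37 (SE, limma adjusted p = 0.392). Paip2 went the other way in the same test, with 1.20 ± 0.37 (SE, limma adjusted p = 0.393).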

How the data were processed

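Peaks of 4 histone marks were deposited as 16 lists, 1 per library. Per the submitters' processing notes, reads were aligned with BWA to mm10 and peaks called with MACS2. Each deposited peak carries its fold enrichment over background, the -log10 of its p-value and of its q-value, and a score, all as the authors' peak caller gave them; the score was not used here. The depth of each library is unknown. The members and lists were chosen with earlier results of these data known.

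Promoters ran from 1000 bp before to 500 bp after every GENCODE M21 start, and an overlap of 1 bp counted. Per gene and library the widest peak and the largest fold enrichment were taken on the log2 scale, centred on the library median and compared between 2 KO and 2 WT libraries with limma 3.58.1 in R 4.3.3, over genes with a peak in all 4 libraries, with Benjamini-Hochberg adjustment and a threshold of 0.05. Acetylation classes used regions shared by both replicates for H3K4me3 and H3K9ac and replicate 2 for H3K27ac and H3K4me1, since the study left out 1 unnamed replicate of each and replicate 1 held almost no peak past a q-value of 0.05. Intervals were handled in Python 3.11.15 with numpy 2.4.6 and pandas 2.3.3, and figures drawn with matplotlib 3.10.9. The interval code was compared with bedtools 2.31.1 on simulated intervals alone. Scripts were tested on simulated data. A marker gene and the count that includes it are not reported here.

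Genes were named by rule: members whose class differed or without shared H3K4me3 in a genotype, the 3 of smallest p in each test, which miss the threshold, the 5 widest by WT mean for H3K9ac and for H3K4me3, those with a WT-exclusive region, and a list of core factors. Alternatives were no centring, quantile normalization, a stricter q-value, the outermost start, summed width, the widest peak's fold enrichment, a peak in at least 1 library of each genotype, other consensus rules, 50% overlap, H3K27ac or H3K9ac lists of equal length, a replicate block and each replicate left out. Chromosomes 1 to 19 alone were added after seeing the data.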

Additional observations from a re-analysis of the deposited data

How the results depend on the processing

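Members called by limma numbered 0 under every alternative run of the 4 tests. Of 132 log2 differences under alternatives, from 12 pairs of a member and a test that cover 11 genes, 131 had the same sign and missed the threshold as before, 0 passed it, and 1 reversed, that of Eif4e2 in H3K9ac width, at 0.036 with summed width. Sizes moved more: with summed width Eif4g3 went from -0.62 to -0.03 in H3K9ac, and Eif4a1 from 0.70 to 0.11 and Eif2b4 from 1.03 to 0.36 in H3K4me3. Also with summed width, Eif2b5 went from 0.83 to 0.49 in H3K9ac, while Eef1d grew from -0.86 to -1.26 in H3K4me3. With the outermost start Eif4g3 went from 0.82 to 0.02 in H3K4me3 fold enrichment and to -1.49 in H3K9ac width. Leaving out 1 library moved these by over 1.5 times: without KO replicate 2, Eif3m went to -0.55 in H3K9ac fold enrichment, Eif4a1 to 0.43 in H3K4me3 width, and Eif2ak4 to -0.77 and Eif2b3 to -0.38 in H3K4me3 fold enrichment. Without KO replicate 1, Eif2b3 went to -1.26 in H3K4me3 fold enrichment and Eef1d to -0.48 in H3K4me3 width, and without WT replicate 2, Eif4ebp1 to -0.38 in H3K9ac and Eif4g3 to 0.50 in H3K4me3 fold enrichment. Over all genes, the 2 called for H3K4me3 width became 0 without centring, 0 with quantile normalization, 0 with summed width, 4 with the outermost start and 4 with a peak in at least 1 library of each genotype. Leaving out 1 replicate gave 1 to 42 genes for H3K4me3 width and 0 to 2 for H3K9ac fold enrichment, where the lone library left is assumed to vary like the others. With a replicate block, limma called 6 genes for H3K4me3 width and 0 in the other 3 tests. Same-numbered replicates had deviations that correlated at 0.143 and 0.133 for H3K9ac width and fold enrichment and at -0.0462 and -0.0015 for H3K4me3. With 2 pairs this does not settle a pairing, and no label names a source that same-numbered replicates share. The class differed at 18 members when both replicates were required for every mark, at 20 with replicate 1 alone, at 5 with 50% overlap, beside 2966, 3830 and 2267 of all genes, and at 1 on chromosomes 1 to 19, where H3K9ac in KO alone went from 1 to 0. Both acetyl marks lay at 17 members in WT and 1 in KO when both replicates were required, beside 2317 and 47 of all genes. With replicate 1 alone they lay at 19 and 0, beside 2562 and 79. H3K9ac only lay at 46 in WT and 62 in KO with both replicates required, beside 9001 and 10937 of all genes. With replicate 1 it lay at 44 and 64, beside 9380 and 11212. It lay at 2 in WT with the stricter q-value, beside 1884 of all genes. With H3K27ac lists of equal length it lay at 1 in KO, beside 950. A WT-exclusive region lay at 1 member, Eif5a2, with the outermost start, at 6 with the stricter q-value and at 6 with replicate 1 alone, where Eif4g1 alone of the 4 was kept, beside 1092, 1403 and 2053 of all genes. With both replicates required, Eif4e2 took the place of Eif4a1. A KO-exclusive one lay at 17 when both replicates were required, at 16 with replicate 1 and at 1 with equal lists, beside 2976, 2442 and 534 of all genes. Few or no peaks of H3K27ac replicate 1 pass a q-value of 0.05, and the cause of these moves was not tested.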
